A study of Mus musculus with 12 samples.

Results

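The subcortical maternal complex is a protein assembly of the egg, and 8 of the 55401 genes listed in the count tables were examined as its genes: Khdc3, Ooep, Nlrp5, Tle6, Padi6, Zbed3, Nlrp2 and Nlrp4f. They were chosen by name. Khdc3 was the reason for the choice, because its RNA was among those that fell most after loss of Nr5a2 in these same libraries, and the question was whether the other 7 genes, called partners here, followed it. Differences of Khdc3 are therefore given as descriptions without a test in every comparison, and the tests concern the partners.

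RNA was sequenced from mouse 8-cell embryos in 12 libraries, each made from a pool of 10 embryos. Zygotes came from superovulated B6129F1 females aged 3 to 5 weeks mated with B6CBAF1 males, were collected 19 h after hCG, and were injected at 8 to 9 h after fertilization. Control embryos (n = 2) received 15 µM control siRNA. Embryos of the Nr5a2 knockdown group (Nr5a2 KD, n = 3) received 5 µM siRNA against Nr5a2, and those of the Klf5 knockdown group (Klf5 KD, n = 3) received 10 µM siRNA against Klf5. The double knockdown group (dKD, n = 4) received both siRNAs, at amounts not given in the sources used here. The amount of siRNA thus differed between control, Nr5a2 KD and Klf5 KD along with its target. H2B-EGFP mRNA at 150 ng/µl was injected with the siRNA in every group, so the reporter and the injection were shared by the controls. A pool averages over its embryos, so the number of embryos that responded cannot be read from these values. In such bulk libraries fewer cells that carry an RNA and less of that RNA per cell cannot be told apart.

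Proteins of this complex are made in the growing oocyte and gather beneath the plasma membrane of the egg and of the outer cells of the early embryo. Eggs that lack a core protein can be fertilized, but the embryos usually stop at early cleavage. Most of the maternal transcripts are cleared as the embryonic genome is switched on, while the proteins persist much longer, so RNA at the 8-cell stage reports what is left of the maternal supply together with anything the embryo transcribes. NR5A2 is an orphan nuclear receptor that binds DNA as a monomer, and KLF5 is a zinc finger factor that binds GC-rich elements. Both are transcription factors of the early embryo.

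The libraries held 6676683 to 12560926 gene counts, and levels are given as CPM, the count of a gene per 1e6 counts of a library scaled with TMM factors. The targeted genes followed the labels. Nr5a2 stood at 225 and 210 CPM in the controls, at 32.8, 38.8 and 24.1 CPM in Nr5a2 KD, at 117, 255 and 203 CPM in Klf5 KD, and at 25.2 to 33.8 CPM in dKD. Klf5 stood at 444 and 466 CPM in the controls, 72.7 to 144 CPM in Klf5 KD and 39.9 to 82.0 CPM in dKD, and it was also lower in Nr5a2 KD, at 109 to 158 CPM. The share of counts on mitochondrial genes was 12.9% to 13.2% in the controls. It reached 12.5% and fell as low as 6.18% in Nr5a2 KD, reached 11.8% and fell as low as 4.41% in Klf5 KD, and spanned 6.17% to 12.8% in dKD. Of 6 preimplantation markers 5 were detected in all 12 libraries, Cdx2 being the exception. Of 9 cumulus and granulosa cell markers 2 were detected in all 12, Inhba and Ptx3 had no count, and the list summed to 12.9 to 17.5 CPM in controls. Its sum was 10.9 to 14.1 CPM in Nr5a2 KD, 9.19 to 17.7 CPM in dKD and 16.6 to 20.9 CPM in Klf5 KD. Most of these sums was a single gene, Amhr2, at 10.6 to 16.2 CPM in controls and 9.65 to 10.8 CPM in Nr5a2 KD. Amhr2 stood at 8.245 to 16.7 CPM in dKD and 15.7 to 20.3 CPM in Klf5 KD. The 4 sperm markers summed to at most 2.81 CPM, with Tnp2 at 0.

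The sequences before the start sites are shown for Khdc3, the gene that set the question, and for Nlrp5, the 1 partner that passed the test in a comparison below. Each is 300 bases from RefSeq on GRCm38.p6, from 250 bases before to 50 bases after the annotated start, written 5′ to 3′ on the strand of the gene. The Khdc3 window is chr9:73102148-73102447 on the plus strand, and the Nlrp5 window is chr7:23385639-23385938 on the plus strand. Capitals mark matches, on either strand, to an NR5A-type motif (CAAGGNCA) or to a KLF-type motif (GGGNGGGG).
Khdc3: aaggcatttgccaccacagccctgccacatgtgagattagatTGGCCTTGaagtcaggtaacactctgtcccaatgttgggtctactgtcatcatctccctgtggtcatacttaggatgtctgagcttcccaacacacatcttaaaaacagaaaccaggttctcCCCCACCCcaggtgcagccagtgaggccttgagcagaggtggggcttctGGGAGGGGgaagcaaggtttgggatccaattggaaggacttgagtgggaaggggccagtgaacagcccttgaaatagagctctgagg
Nlrp5: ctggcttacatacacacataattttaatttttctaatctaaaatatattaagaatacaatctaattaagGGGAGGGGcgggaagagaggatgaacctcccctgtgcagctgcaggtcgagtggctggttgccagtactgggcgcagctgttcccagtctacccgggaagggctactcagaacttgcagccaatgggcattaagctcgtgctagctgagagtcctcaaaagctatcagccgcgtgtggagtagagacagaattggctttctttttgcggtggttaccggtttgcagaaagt
The RefSeq start of Khdc3 lies 562 bases inside the gene as the count tables place it, so its whole window falls within the counted gene. The match at 208 bases before that RefSeq start, which reads CAAGGCCA on the opposite strand, is of the NR5A type. The other pair of matches in that window, at 86 and 37 bases before the start, and the match in the Nlrp5 window, at 181 bases before it, are of the KLF type. All 8 members had a window in the RefSeq table, some with alternative starts, and an NR5A-type match was present for Khdc3 alone among them. Such a match was present in 6.71% of 32851 promoter windows of the same length, and a KLF-type match in 33.2%. KLF-type matches occurred in windows of Khdc3, Ooep, Nlrp5, Tle6, Zbed3 and Nlrp2 and not in those of Padi6 and Nlrp4f. The Ooep matches were 7 in number and most of them overlap within a single run of G. A match describes letters in a window and does not show binding.

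Khdc3 encodes a KH-domain protein of the complex, also known as FILIA. The gene lies at chr9:73101836-73104438 on the plus strand (GRCm38). Its level was 90.9 and 105 CPM in the controls, 23.9, 13.7 and 11.8 CPM in Nr5a2 KD, 154, 151 and 122 CPM in Klf5 KD, and 17.2, 8.49, 7.89 and 6.95 CPM in dKD. All 7 libraries with the Nr5a2 siRNA lay below all 5 without it, a separation found for 6.82% of the genes tested over all 12 libraries, and the 3 Klf5 KD libraries lay above both controls, as they did for 12.6% of all genes tested. The fitted difference from control was -2.55 on the log2 scale in Nr5a2 KD (SE 0.29), or 5.86-fold lower, and -3.24 in dKD (SE 0.32), or 9.45-fold lower. Against Klf5 KD the dKD libraries were lower by 13.9-fold (log2 fold change -3.80, SE 0.32). Klf5 KD stood 1.46-fold above control (log2 fold change 0.54, SE 0.27). That log2 fold change ranged from 0.27 to 1.24 under other settings, the highest with ERCC counts. Ordered from the largest decrease, Khdc3 was number 174 of 13262 genes in Nr5a2 KD, 73 of 13724 in dKD against control and 33 of 12904 in dKD against Klf5 KD.

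With the mitochondrial share of the library as a covariate the Khdc3 log2 fold change was -2.35 in Nr5a2 KD and -2.86 in dKD. With libraries scaled by the ERCC spike-in counts in place of TMM it was -1.82 and -2.49, while the median of all genes moved up to 0.82 in Nr5a2 KD and 0.84 in dKD on the same scale. The counting also bears on this gene. Of the 2050 exonic bases of Khdc3, 790 (38.5%) are shared with Gm20509, a same-strand gene model that runs from Khdc3 into Rsl24d1, and fragments assigned to both were divided between them. Khdc3 values were not whole numbers in 8 of the 12 libraries, and which of the genes the divided fragments came from is not known.

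**Figure D1:**
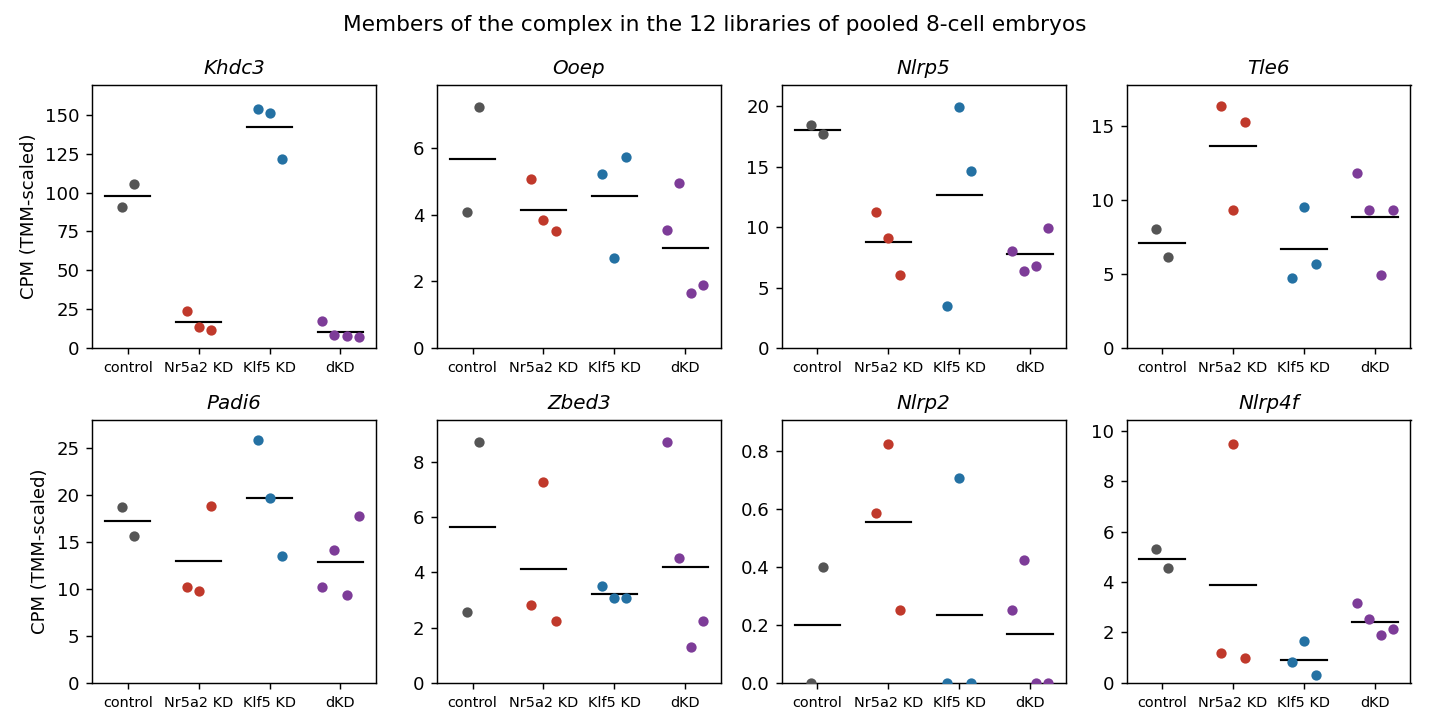
Level of each of the 8 members in CPM (y axis, linear from 0, scaled per gene) in the control, Nr5a2 KD, Klf5 KD and dKD groups (x axis). Each point is 1 library and each bar a group mean. Khdc3 lies at 6.95 to 23.9 CPM in the 7 libraries with the Nr5a2 siRNA and at 90.9 to 154 CPM in the other 5, while the points of Ooep, Padi6, Zbed3 and Nlrp2 in both Nr5a2-depleted groups overlap those of the controls.

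Calls for the partners required an adjusted p under 0.05 (edgeR quasi-likelihood test with Benjamini-Hochberg adjustment over all genes tested) and a change of at least 2-fold. Of the 7 partners 6 passed the filter on low counts in each comparison, and Nlrp2 did not. In Nr5a2 KD against control no partner passed, where 4.42% of 13262 genes tested were called lower and 3.45% were called higher. The single member past both thresholds was Khdc3, which the choice of the gene had fixed. The partners' median log2 fold change was -0.40 against 0.04 over all genes, with 5 of 6 below 0, but 1 of 6 below 0 under ERCC scaling. The lowest 95% bound among the 6 partners was -2.09, for Nlrp4f. In dKD against control 1 partner, Nlrp5, passed in the lower direction and none in the higher, against 3.85% and 3.38% of 13724 genes. The median of the partners was -0.65 against 0.05 over all genes, again with 5 of 6 below 0 (3 of 6 under ERCC scaling). Controls number 2, and nothing in the sources says that replicate libraries came from separate litters or injection sessions, so the p-values measure the spread between these libraries.

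**Figure D2:**
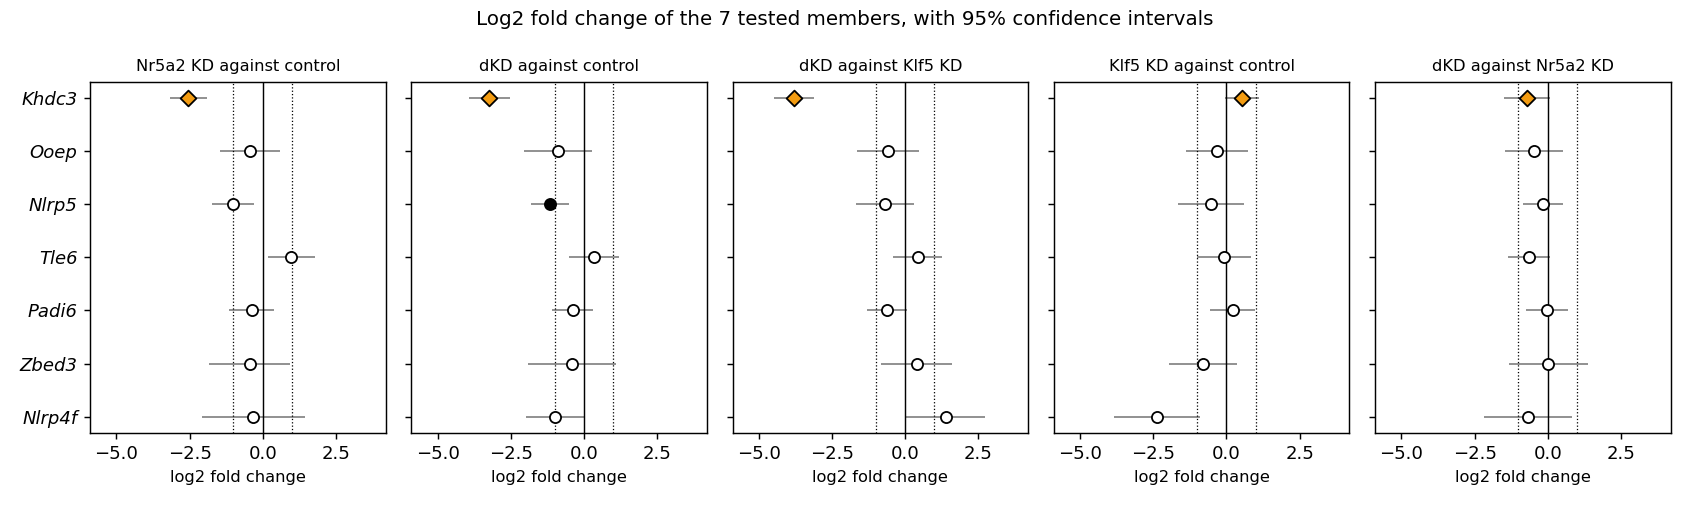
Log2 fold change (x axis) of the 7 members that passed the filter on low counts (y axis) in 5 comparisons, with 95% confidence intervals from edgeR. The Khdc3 values, drawn as orange diamonds, are descriptions, the filled circle is the partner that passed the call rule (Nlrp5, -1.17 in dKD against control), and dotted lines mark 2-fold changes.

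NLRP5, the protein also called MATER, and its partners TLE6 and OOEP form the structural core of the complex. Nlrp5 lies at chr7:23385889-23441922 on the plus strand. It stood at 18.5 and 17.7 CPM in the controls, at 11.3, 9.07 and 6.01 CPM in Nr5a2 KD, at 3.50, 19.9 and 14.6 CPM in Klf5 KD and at 8.07, 6.37, 6.83 and 9.89 CPM in dKD. All 7 libraries with the Nr5a2 siRNA were below both controls, whereas Klf5 KD spanned a range wider than that of all other groups. A full separation from the controls toward lower values was seen for 22.5% of genes tested in Nr5a2 KD and for 19.2% in dKD, so it is common here. The estimate was -1.17 on the log2 scale in dKD against control (SE 0.29, adjusted p = 0.0324), a 2.25-fold decrease. It was -1.01 in Nr5a2 KD (SE 0.33, adjusted p = 0.0823), which missed the threshold, and the dKD libraries did not differ measurably from Nr5a2 KD (log2 fold change -0.17, 95% interval -0.85 to 0.52, adjusted p = 0.999). Against Klf5 KD the dKD value was -0.68 (SE 0.46, adjusted p = 0.384).

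The Nlrp5 call was a narrow one. Leaving out either control (adjusted p = 0.210 and 0.195 without replicates 1 and 2), dKD replicate 2 (0.0513) or dKD replicate 3 (0.0698) ended it. It was also lost with total-count scaling (0.0576), with ERCC scaling (log2 fold change -0.35, adjusted p = 0.521) and with all 12 libraries in the fit (0.121). It was kept with DESeq2 (0.0107), with the mitochondrial share as a covariate (-1.32, adjusted p = 0.0359) and with the replicate block (-1.31, adjusted p = 0.0249). The Klf5 KD library with the lowest Nlrp5, replicate 1 at 3.50 CPM, also had the lowest mitochondrial share of the series, 4.41%, and whether that played a part was not tested.

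Tle6, which encodes a Groucho-family protein of the core, lies at chr10:81590904-81601073 on the minus strand. Its level was 8.02 and 6.16 CPM in the controls, 16.4, 9.35 and 15.3 CPM in Nr5a2 KD, 4.76, 9.54 and 5.71 CPM in Klf5 KD, and 11.9, 9.34, 4.95 and 9.31 CPM in dKD. Nr5a2 KD lay wholly above the controls, as did 19.9% of genes tested, and dKD overlapped them. Its log2 fold change stood at 0.98 in Nr5a2 KD (SE 0.37, adjusted p = 0.127) and 0.36 in dKD (SE 0.39, adjusted p = 0.627). Nlrp5 and Tle6, whose proteins bind each other, had estimates of opposite sign in Nr5a2 KD and in dKD against control, and of these only Nlrp5 in dKD passed the test. In Klf5 KD against control both were below 0, at -0.53 and -0.08, but above 0 with ERCC counts and with the mitochondrial covariate.

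Ooep, the KH-domain gene of the core, lies at chr9:78376109-78378725 on the minus strand of the chromosome that carries Khdc3. Its level was 4.09 and 7.23 CPM in the controls, 5.06, 3.85 and 3.51 CPM in Nr5a2 KD, 5.21, 2.71 and 5.71 CPM in Klf5 KD, and 3.53, 4.95, 1.65 and 1.89 CPM in dKD, with every group overlapping the controls. Its estimate was -0.43 on the log2 scale in Nr5a2 KD (SE 0.47, adjusted p = 0.636) and -0.89 in dKD (SE 0.53, adjusted p = 0.327). With a median of 28.5 counts per library, its 95% interval in Nr5a2 KD was -1.45 to 0.59, which takes in a 2-fold decrease.

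Padi6 encodes a member of the peptidylarginine deiminase family that oocytes need to form their cytoplasmic lattices, and it lies at chr4:140727355-140742643 on the minus strand. It stood at 18.8 and 15.7 CPM in the controls, at 10.2, 9.76 and 18.8 CPM in Nr5a2 KD, at 25.8, 19.7 and 13.5 CPM in Klf5 KD, and at 10.2, 14.1, 9.31 and 17.8 CPM in dKD. Each knockdown group overlapped the controls. On the log2 scale the difference from control was -0.38 in Nr5a2 KD (SE 0.36, adjusted p = 0.576) and -0.38 in dKD (SE 0.32, adjusted p = 0.509), and the 95% intervals, -1.15 to 0.40 and -1.08 to 0.32, leave room for a decrease of 2-fold.

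The remaining partners were scarce. Zbed3, a zinc finger gene whose product associates with the complex, ran from 1.30 to 8.70 CPM, and that range was spanned by the 4 dKD libraries alone (8.70, 4.53, 1.30 and 2.24 CPM). The controls stood at 2.57 and 8.70 CPM. Its log2 fold change was -0.44 in Nr5a2 KD (adjusted p = 0.731) and -0.41 in dKD (adjusted p = 0.770). Within-group spread was large for it, at an SD of 0.90 on the log2 scale against 0.51 for the median gene of similar count, where counting alone would give 0.25.

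Nlrp4f, an oocyte gene of the NLRP family, stood at 5.30 and 4.55 CPM in the controls, at 1.18, 9.48 and 1.00 CPM in Nr5a2 KD, at 0.81, 1.65 and 0.29 CPM in Klf5 KD, and at 3.15, 2.55, 1.89 and 2.12 CPM in dKD. A single Nr5a2 KD library, replicate 2, held the highest value of the series beside others of about 1 CPM. Klf5 KD and dKD lay wholly below the controls, as did 14.4% and 19.2% of all genes tested, and dKD lay wholly above Klf5 KD, as did 12.2%. Its log2 fold change was -2.38 in Klf5 KD against control (SE 0.68, adjusted p = 0.401), -0.98 in dKD (adjusted p = 0.207) and 1.38 in dKD against Klf5 KD (adjusted p = 0.172). None passed the test, and the counts behind the Klf5 KD values were 9, 14 and 2.

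Nlrp2, the other NLRP gene reported with the complex, had 0 to 6 counts per library and no count in 5 libraries, which allows up to 0.269 to 0.454 CPM at 3 counts in those libraries. The limits cover counting error only. A difference between groups was not detectable at this depth.

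In Klf5 KD against control and in dKD against Nr5a2 KD, which differ by the Klf5 siRNA, no partner passed the test. The amount of siRNA differed as well or was not given, so these comparisons do not isolate the Klf5 siRNA. Klf5 KD against control had 0.0% of 12838 genes called lower and 0.0% called higher, with 1087 genes at an unadjusted p under 0.05, and DESeq2 called 50. The partners there had a median log2 fold change of -0.42, with 5 of 6 below 0 (2 of 6 under ERCC scaling), and Nlrp4f was the 1 partner with an unadjusted p under 0.05. In dKD against Nr5a2 KD the shares were 0.0% and 0.0% of 13017 genes, with 447 genes at an unadjusted p under 0.05 and 4 called by DESeq2. No partner was among those 447. Khdc3 was 1.63-fold lower in dKD than in Nr5a2 KD (log2 fold change -0.70, SE 0.36), and the 2 groups overlapped. This is a description, because the Nr5a2 KD level was part of what chose the gene. Khdc3 was lower in dKD for each of the 3 shared replicate numbers, and with the replicate number as a block the log2 fold change was -0.58. Of the tested partners Tle6 was also lower for each number (log2 fold change -0.63, adjusted p = 0.999 by edgeR). For number 2 its levels were 9.35 CPM in Nr5a2 KD and 9.34 CPM in dKD. In dKD against Klf5 KD, where 5.41% of 12904 genes were called lower and 5.38% higher, no partner passed in either direction, the partners' median was -0.10 and 3 of 6 were below 0.

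A fit over all 12 libraries with a term for each siRNA, added after the values were seen, gave the Nr5a2 siRNA term more libraries on each side. It called 6.55% of 14830 genes lower and 6.72% higher, and no partner. Nlrp5 had a log2 fold change of -0.84 (SE 0.31, adjusted p = 0.0661), Padi6 -0.53 (SE 0.24, adjusted p = 0.120) and Tle6 0.63 (SE 0.27, adjusted p = 0.112). Those of Ooep, Nlrp4f and Zbed3 were -0.54, 0.55 and 0.02, with adjusted p from 0.269 to 0.986. Without Klf5 KD replicate 1 Nlrp5 passed, at -1.08 and an adjusted p of 0.00191. The adjusted p of Padi6 was 0.0382 with the mitochondrial covariate and 0.0434 to 0.323 without a library, at changes under 2-fold. That of Tle6, in the opposite direction and also under 2-fold, was 0.0417 with total counts, 0.0383 without Klf5 KD replicate 2 and 0.0468 without dKD replicate 3.

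The members' levels were ordered per kilobase of exon so that genes can be compared, and the place of Khdc3 in that order rests on the decrease by which it was chosen. In control embryos Khdc3 led at 47.8 ± 4.93 CPM per kb (SD, n = 2), ahead of Padi6 at 6.80 ± 0.87 and Nlrp5 at 3.73 ± 0.12, without overlap between these neighbours. Ooep, Zbed3 and Tle6 followed at 2.65, 2.53 and 2.30 CPM per kb and overlapped one another, and Nlrp4f at 1.27 and Nlrp2 at 0.057 CPM per kb came last. In Klf5 KD Khdc3 led again, at 69.4 ± 8.64 CPM per kb (n = 3), followed by Padi6 at 7.77 ± 2.44. In Nr5a2 KD Khdc3 at 8.03 ± 3.17 and Padi6 at 5.11 ± 2.01 CPM per kb (n = 3) overlapped, and in dKD Padi6 at 5.08 ± 1.54 and Khdc3 at 4.94 ± 2.31 (n = 4) could not be ordered. Tle6 came next in both groups by its mean, at 4.42 ± 1.22 and 2.87 ± 0.93 CPM per kb. It overlapped Padi6 and Zbed3 in Nr5a2 KD, and Padi6, Khdc3, Zbed3, Nlrp5 and Ooep in dKD.

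Khdc3 made up 71.2 ± 0.50% of the members' summed CPM per kb in the controls and 80.9 ± 0.85% in Klf5 KD, but 32.4 ± 8.91% in Nr5a2 KD and 26.5 ± 7.41% in dKD. This follows from the decrease by which Khdc3 was chosen. The sum over the 7 partners is free of that choice, and it was 18.2 and 20.4 CPM per kb in the controls, 15.8, 16.5 and 16.6 in Nr5a2 KD, 16.7, 18.2 and 14.3 in Klf5 KD and 16.0, 15.1, 8.53 and 14.5 in dKD. The group means of the partners' sum were 84.3%, 85.0% and 70.0% of control for Nr5a2 KD, Klf5 KD and dKD. All 10 knockdown libraries were below both controls, Klf5 KD replicate 2 by less than the rounding used here. Summed as plain CPM, Klf5 KD replicate 2 was at 57.3 and the lower control at 57.2. The lowest value came from dKD replicate 3. These sums are on the TMM scale, and with ERCC counts the partners' median log2 fold change from control was above 0, at 0.28 in Nr5a2 KD, 0.21 in Klf5 KD and 0.07 in dKD.

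**Figure D3:**
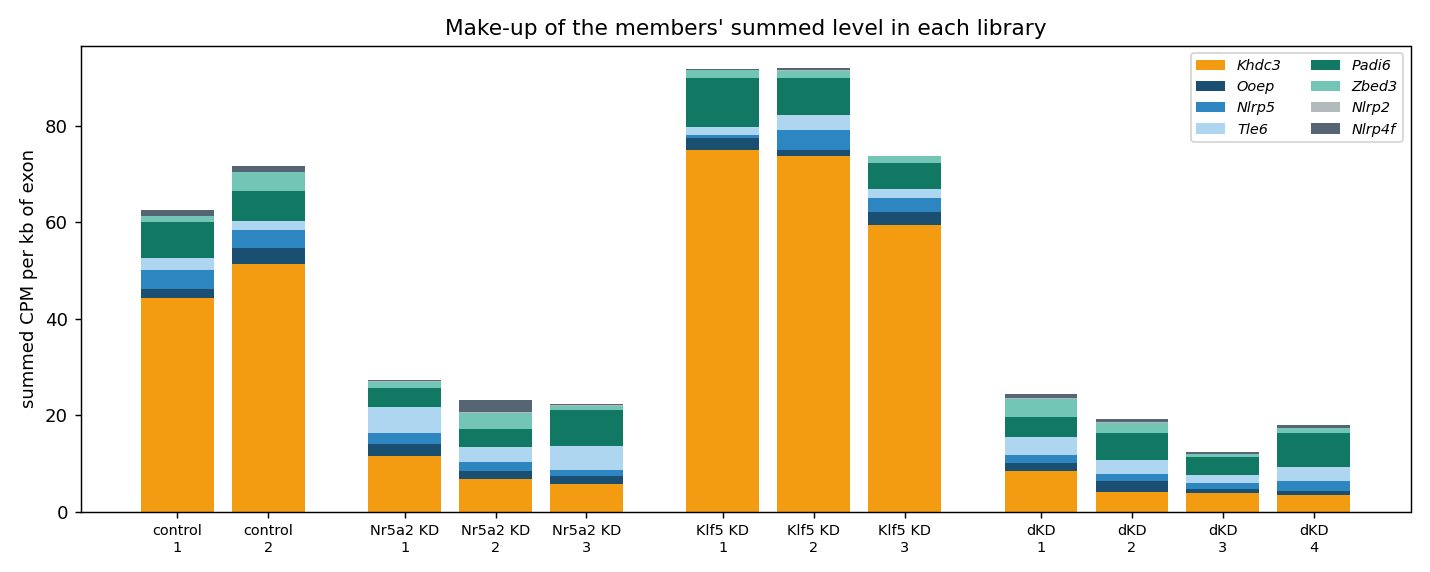
Summed level of the 8 members in CPM per kb of exon (y axis, from 0) in each of the 12 libraries (x axis, group and replicate), divided by gene. The orange Khdc3 block spans 44.4 to 75.0 CPM per kb in control and Klf5 KD libraries and 3.39 to 11.7 in libraries with the Nr5a2 siRNA, while the partners' blocks together span 8.53 to 20.4.

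Genes beside the members were compared to see whether neighbours moved with them. Rab27a, a small GTPase gene ending 4207 bases before Khdc3, had log2 fold changes of -0.10 in Nr5a2 KD, 0.20 in dKD against control and 0.20 in dKD against Klf5 KD (adjusted p from 0.757 to 0.927). Rsl24d1, a ribosome biogenesis gene 8988 bases beyond Khdc3, stood at 781 and 830 CPM in the controls, 782 to 908 CPM in Klf5 KD, 534 to 598 CPM in Nr5a2 KD and 498 to 672 CPM in dKD. All 7 libraries with the Nr5a2 siRNA lay below the other 5, as for 6.82% of all genes. The log2 fold changes were -0.50, -0.44 and -0.51 in those comparisons (adjusted p = 0.156, 0.176 and 0.105), and -0.52 in the 12-library fit (SE 0.12, adjusted p = 0.00554), under 2-fold. Under ERCC scaling the sign against control was the opposite, at 0.27 in Nr5a2 KD and 0.38 in dKD.

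Gm20509, the gene model that joins Khdc3 and Rsl24d1, stood at 154 and 160 CPM in the controls, 156 to 228 CPM in Klf5 KD, 84.3 to 86.3 CPM in Nr5a2 KD and 68.4 to 101.5 CPM in dKD. Its log2 fold change was -0.86 in Nr5a2 KD (adjusted p = 0.0248) and -0.90 in dKD (adjusted p = 0.0254), both under 2-fold, and it was called in dKD against Klf5 KD (-1.20, adjusted p = 0.00445). With total counts the last of these was -0.98, under 2-fold, and with ERCC counts its adjusted p was 0.144. With ERCC counts the differences from control were -0.071 in Nr5a2 KD and -0.066 in dKD. In dKD against control it passed both thresholds with the replicate block (-1.09), with the mitochondrial covariate (-1.12) and without dKD replicate 4 (-1.02), and it was called in the 12-library fit (-1.08, adjusted p = 6.8e-05), though not there with total counts (-0.88), with ERCC counts (-0.66) or without Klf5 KD replicate 1 (-0.95). Reads in the exonic bases shared by Gm20509 and Khdc3 cannot be told apart. For Nlrp5 the next filtered genes were Zfp180, as far as 640002 bases away, and Nlrp4e, 23612 bases away. Zfp180 had log2 fold changes of -0.20 in Nr5a2 KD and -0.34 in dKD (adjusted p = 0.740 and 0.625). Nlrp4e had at most 3 counts in control and Nr5a2 KD libraries and 4 to 39 in Klf5 KD and dKD. It did not pass the test in Klf5 KD (adjusted p = 0.466) or in dKD against control (adjusted p = 0.161).

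**Figure D4:**
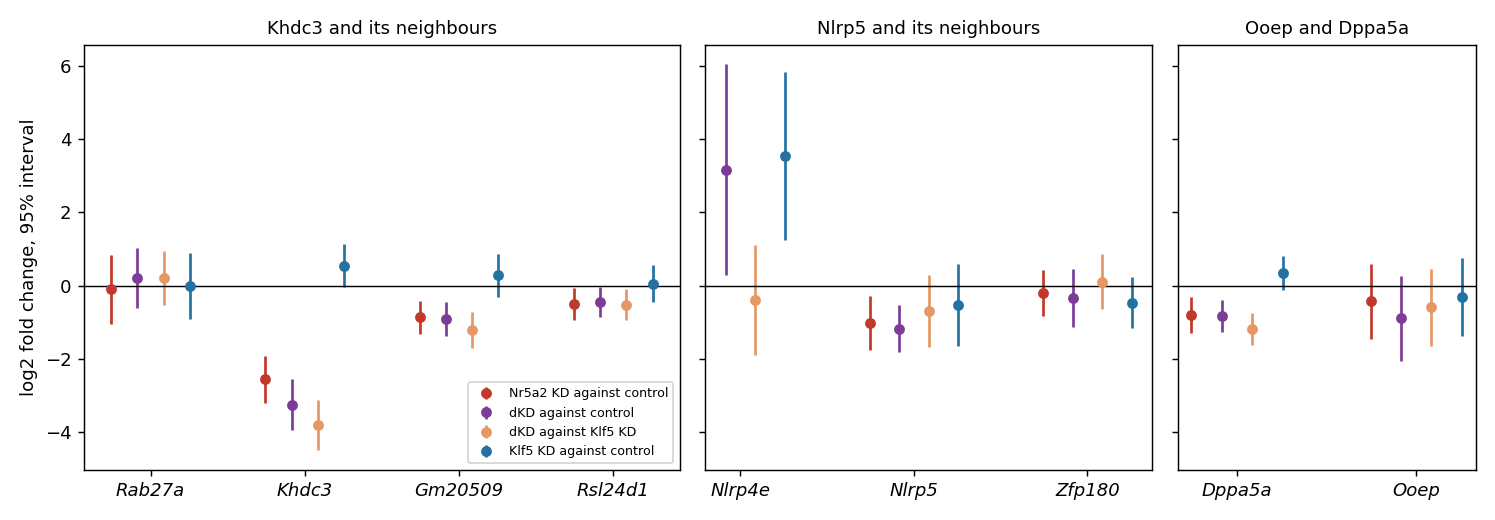
Log2 fold change with 95% interval (y axis) of Khdc3, Nlrp5 and Ooep and genes beside them (x axis) in 4 comparisons, by colour. Against Klf5 KD, dKD shows -3.80 for Khdc3, -1.20 for the overlapping Gm20509 and -0.51 for Rsl24d1, with Rab27a on the other side at 0.20.

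Dppa5a, a KH-domain gene of pluripotent cells, lies 7932 bases from Ooep and is the most abundant of 4 KH-domain relatives. It stood at 4138 and 3500 CPM in the controls, 2674, 2017 and 1801 in Nr5a2 KD, 5081, 4336 and 5054 in Klf5 KD, and 2556, 2094, 2141 and 1594 in dKD. The 7 libraries with the Nr5a2 siRNA lay below the other 5, which held for 6.82% of all genes tested. It was called in dKD against Klf5 KD, 2.28-fold lower (log2 fold change -1.19, SE 0.20, adjusted p = 0.00251), a call that the replicate block (adjusted p = 0.0594) and total-count scaling (-0.98) ended. The 12-library fit called it as well (-1.05, adjusted p = 9.2e-05), but not with the replicate block (-0.97), total counts (-0.86) or ERCC counts (-0.66), nor without Klf5 KD replicate 1 (-0.98) or dKD replicate 4 (-0.97). Against control it was lower by less than 2-fold, at -0.80 in Nr5a2 KD (adjusted p = 0.0484) and -0.83 in dKD (adjusted p = 0.0291), and at -0.05 and -0.07 under ERCC scaling. Of the other relatives, Khdc1a, Khdc1b and Khdc1c, none passed the test in any comparison, and reads of this gene cluster may be shared among its copies.

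Ranked over 14829 genes by how closely their centred log2 CPM followed that of Khdc3 across the 12 libraries (root mean square difference), the nearest were Tulp1 (0.43), Actn2 (0.44), Fdx1 (0.44), Irak3 (0.47) and Rflnb (0.48). Actn2, an alpha-actinin of the sarcomere, stood at 244 CPM in controls (mean, n = 2), 36.8 in Nr5a2 KD, 273 in Klf5 KD and 34.7 in dKD, and Fdx1, the ferredoxin of mitochondrial steroid synthesis, at 75.8, 9.47, 104 and 10.2. Of the partners, Ooep was number 2314, Padi6 2717 and Nlrp5 2980 (difference 1.56), within the nearest 15.6%, 18.3% and 20.1% of genes, and Zbed3 was number 6521, Tle6 10816 and Nlrp4f 12937 (difference 2.25), while Dppa5a was number 635 (difference 1.18). The ranking is a description over libraries that share their groups.

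The wider oocyte gene sets are small, and their counts stand beside the 4.42% and 3.85% of all genes called lower in Nr5a2 KD and in dKD against control. Of 10 oocyte-type Nlrp genes outside the complex 5 could be tested in Nr5a2 KD and 6 in dKD against control, and none was called, with medians of -0.52 and -0.14. Nlrp14, the most abundant of them at a mean of 22.4 CPM, had log2 fold changes of -0.56 (adjusted p = 0.206) and -0.27 (adjusted p = 0.5997). Of 9 Tle and Padi relatives 4 and 6 were tested and none was called. Tle4, a Groucho co-repressor gene at a mean of 137 CPM, had -0.44 and -0.47 (adjusted p = 0.306 and 0.247).

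Of 5 genes whose proteins have been linked to the complex or act with it, none was called in any comparison, and the medians were 0.35 in Nr5a2 KD and 0.47 in dKD against control. They include Cfl1, the actin-severing protein cofilin, at 0.28 and 0.47, and Ywhae, a 14-3-3 protein gene, at 0.35 and 0.68. Of 25 other oocyte transcripts 19 were tested in Nr5a2 KD, where 1 was called lower and the median was -0.24, and 18 in dKD, where none was called and the median was -0.36. In Klf5 KD against control 16 of 19 were below 0 with a median of -0.63, and none was called. Over all genes tested there, 49.55% were below 0 and the median was 0.005, which moved up to 0.66 under ERCC scaling. The called gene was Zar1l, a relative of the zygote arrest gene, at 7.56 and 7.90 CPM in the controls and 2.00, 2.61 and 2.13 CPM in Nr5a2 KD (log2 fold change -1.75, SE 0.46, adjusted p = 0.0342), and leaving out either control (adjusted p = 0.159 and 0.192) or Nr5a2 KD replicate 1 (0.0901) or 2 (0.0525) ended that call. So did total-count scaling (-1.64), the fit of all 12 libraries (-1.78), the replicate block (-1.74) and the mitochondrial covariate (-1.65), at similar log2 fold changes. ERCC scaling ended it at a smaller one (-1.01). Dppa3, a maternal factor that protects methylation and by far the most abundant at a mean of 20325 CPM, had 0.71 (adjusted p = 0.0759) and 0.44 (adjusted p = 0.130).

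**Figure D5:**
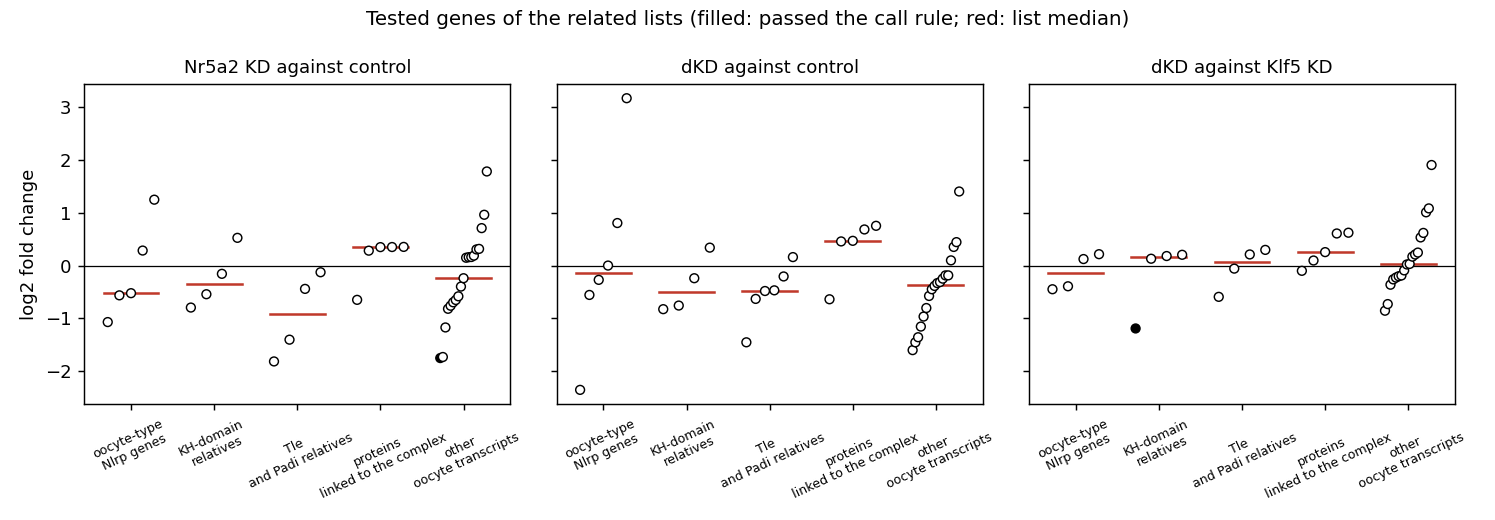
Log2 fold change (y axis) of every tested gene in 5 related lists (x axis) in 3 comparisons, with filled points for genes that passed the call rule and red bars for list medians. The filled points are Zar1l in Nr5a2 KD against control (-1.75) and Dppa5a in dKD against Klf5 KD (-1.19).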

How the data were processed

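RNA-seq of pooled 8-cell embryos was read from 12 deposited tables, 1 per library. According to the labels and methods, the authors trimmed reads with Trim Galore 0.6.2, aligned them to GRCm38 with STAR and counted fragments per gene with featureCounts 2.0.1. The deposited values are estimated counts without normalization, because fragments shared by overlapping genes were divided among them (7.30% to 8.66% of values per library were not whole). The library kit does not mark strand, and no molecular identifiers were used, so counting intervals cover counting error only. Of 55401 gene IDs, 55141 were named from GENCODE M21.

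Estimated counts were rounded and tested with edgeR 4.0.16 (R 4.3.3): filterByExpr (minimum count 10), TMM factors, glmQLFit and glmQLFTest on the libraries compared, with Benjamini-Hochberg adjustment over all genes tested. ERCC spike-ins and the reporter were left out of library sizes. A call required an adjusted p under 0.05 and a 2-fold change. CPM used TMM-scaled library sizes, log2 CPM for profile likeness a prior count of 2. The fits were tested on simulated counts, with 200 genes changed by a log2 fold change of 2 in either direction. The call rule recovered 71.5% of them in Nr5a2 KD, 58.0% in dKD and 60.5% in Klf5 KD, each against control. It recovered 75.0% in dKD against Klf5 KD and 72.5% in dKD against Nr5a2 KD. A gene that was not called may therefore still have changed. Promoter sequences are RefSeq's, on GRCm38.p6.

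The members and gene lists (oocyte-type Nlrp genes, KH-domain relatives, Tle and Padi relatives, proteins linked to the complex, other oocyte transcripts, and preimplantation, 2-cell, cumulus and granulosa, and sperm markers) were chosen with earlier results of these data known. Named were the 8 members, Nr5a2 and Klf5, up to 4 genes per list by mean CPM and those called, the 5 genes nearest in profile to Khdc3, and the nearest filtered gene on each side of Khdc3 and of each called partner. Alternatives were DESeq2 1.42.0, its size factors in edgeR, total-count and ERCC scaling, no filter or a mean of at least 50 counts, all 12 libraries in 1 fit, the replicate number as a block, the mitochondrial share as a covariate, unrounded values, no fold-change minimum and leaving out each library. The 12-library fit with a term per siRNA was added after seeing the data.

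The labels number the replicates without saying what a number shares. In dKD against Nr5a2 KD the same-numbered libraries deviated together from their group means (r = 0.13, 0.22 and 0.25 over genes for numbers 1, 2 and 3). Differently numbered libraries were not compared in this way, so the correlation does not settle whether the numbers mark pairs. Values of this comparison come from the fit without the replicate block unless the block is named.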

Additional observations from a re-analysis of the deposited data

Results flagged for a closer look

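The highest of the 4 dKD libraries for Khdc3, replicate 1 at 17.2 CPM, stood apart from the others, which lay between 6.95 and 8.49 CPM, by more of the group's range than Dixon's criterion for 4 samples allows. Without that library the log2 fold change of Khdc3 in dKD against control was -3.62 in place of -3.24. That library had a mitochondrial share of 12.8%, against 12.6% in dKD replicate 2, and an Nr5a2 level of 28.5 CPM within the dKD range. It also had the highest Klf5 level of the group, 82.0 CPM against 39.9 to 59.8 CPM, and the same-numbered Nr5a2 KD library was the highest of its own group for Khdc3, at 23.9 CPM against 13.7 and 11.8 CPM. The part of these in the Khdc3 level was not tested. All 8 members were examined in this way in the dKD group, the only group of 4, and chance marks about 1 in 20 such groups.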

How the results depend on the processing

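No setting run made a partner pass in Nr5a2 KD against control, Klf5 KD against control, dKD against Klf5 KD or dKD against Nr5a2 KD. Counts of members past the threshold include Khdc3, whose place there the choice of the gene fixed, so only Nlrp5 bears on them. In dKD against control the count of 2 became 1 with total counts, ERCC counts or all 12 libraries in the fit (Nlrp5 lost), and 1 to 2 when a library was left out, as in the 12-library fit (1 to 2, Nlrp5 gained). The 2 controls limit every comparison with control. Where a left-out control leaves 1, that library is assumed to vary like the other group. Causes were not tested.

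Counts over all genes moved more. In Nr5a2 KD against control 1043 became 655 with the mitochondrial covariate and 304 to 1005 without a library. In dKD against control 993 became 3016 with ERCC counts, 1587 without a filter and 132 to 1295 without a library. In Klf5 KD against control 0 became 50 with DESeq2, 25 with ERCC counts, 114 without a filter, 6 with all 12 libraries and 0 to 16 without a library. In dKD against Klf5 KD 1392 became 897 at a mean of 50 counts and 911 to 1366 without a library. In dKD against Nr5a2 KD 0 became 4 with DESeq2, 20 without a filter, 1 with the covariate and 0 to 3 without a library. The 12-library fit went from 1969 to 3252 without a fold-change minimum. The share of calls that were lower went from 56.2% to 10.6% with ERCC counts in Nr5a2 KD, from 53.3% to 39.1% with total counts and 5.90% with ERCC counts in dKD, from 50.1% to 31.4% and 37.3% in dKD against Klf5 KD, and from 49.4% to 33.5% and 19.4% in the 12-library fit.

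In the other comparisons same-numbered libraries did not deviate together (r from -0.16 to 0.05). With the replicate block the count was 253 in Klf5 KD against control and 532 in dKD against Klf5 KD, and the block reversed Zbed3 in dKD against control (0.38) and Nlrp4f in dKD against Nr5a2 KD (0.052). It changed no member's call.

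Estimates that were within error also changed sign. With ERCC counts these were Ooep (0.34), Padi6 (0.51), Zbed3 (0.22) and Nlrp4f (0.17) in Nr5a2 KD, Padi6 (0.43) and Zbed3 (0.32) in dKD against control, and Ooep (0.32), Nlrp5 (0.11) and Tle6 (0.59) in Klf5 KD. With the mitochondrial covariate they were Zbed3 (0.19) and Nlrp4f (0.77) in Nr5a2 KD, Zbed3 (0.30) in dKD against control, Nlrp5 (0.63), Tle6 (0.092) and Padi6 (-0.50) in Klf5 KD, Zbed3 in dKD against Klf5 KD (-0.13), Padi6 (0.025) and Zbed3 (-0.052) in dKD against Nr5a2 KD and Zbed3 in the 12-library fit (-0.11). With total counts it was Padi6 in dKD against Nr5a2 KD (0.025). Leaving out a library gave -0.79 to 0.048 for Ooep, -1.12 to 0.70 for Zbed3 and -2.13 to 0.13 for Nlrp4f in Nr5a2 KD, and -1.05 to 0.73 for Zbed3 in dKD against control. It gave -0.64 to 0.18 for Ooep, -0.43 to 0.13 for Tle6, -0.060 to 0.43 for Padi6 and -1.40 to 0.35 for Zbed3 in Klf5 KD, and -0.25 to 0.70 for Zbed3 in dKD against Klf5 KD. It gave -0.37 to 0.050 for Nlrp5, -0.20 to 0.38 for Padi6, -0.62 to 0.71 for Zbed3 and -1.11 to 1.14 for Nlrp4f in dKD against Nr5a2 KD, and -0.36 to 0.45 for Zbed3 in the 12-library fit.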

Other observations

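Other marker lists gave values for the state of the same libraries. Of 5 markers of 2-cell embryos, Zfp352 was called higher in dKD against control (log2 fold change 2.81, SE 0.60, adjusted p = 0.0156 by edgeR), as were 3.38% of all genes tested. None was called in Nr5a2 KD or Klf5 KD against control. In dKD 2 of the 5 were below 0, with Zscan4d at -0.61 and Tcstv3 at -0.07. Of the preimplantation markers, Tead4, a trophectoderm regulator, was called lower in Nr5a2 KD (-1.01, SE 0.27, adjusted p = 0.0393), as were 4.42% of all genes tested. None was called in dKD against control. Gata3, another trophectoderm regulator, stood 2.08-fold above control in Nr5a2 KD (adjusted p = 0.185 by edgeR) and had a log2 fold change of 0.97 in dKD, while the other 4 markers tested were below 0. Of the cumulus and granulosa markers 2 were tested in Nr5a2 KD and dKD against control, and of the sperm markers 1, and none was called. Among the other oocyte transcripts, Btg4, a deadenylation adaptor for maternal mRNA clearance, stood at 10.7 and 17.8 CPM in the controls and 3.42 to 4.58 CPM in Klf5 KD (log2 fold change -1.78, SE 0.39, adjusted p = 0.227 by edgeR), which did not pass the test. In the 12-library fit Zar1l was called lower (-1.26, adjusted p = 0.0212 by edgeR), a call lost with ERCC counts (-0.88, adjusted p = 0.0835) and without control replicate 1 (adjusted p = 0.0537) or 2 (adjusted p = 0.0589). Kpna7, an importin of the oocyte, was called higher there (1.29, adjusted p = 0.00817 by edgeR). Zfp352 was also called higher (1.07, adjusted p = 0.0279 by edgeR), and Nanog was called lower (-1.10, adjusted p = 0.0394 by edgeR). Alternatives were not examined for the calls of Kpna7, Zfp352, Nanog and Tead4, and that of Tead4 lay close to the 2-fold limit.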
